A study of Mus musculus with 9 samples.

Results

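The mRNAs described here encode 8 MAP kinase phosphatases (Dusp1, Dusp2, Dusp4, Dusp5, Dusp6, Dusp7, Dusp10 and Dusp16) and the Ras pathway inhibitors Spred1 and Spred2. They were taken by symbol from a deposited table of reads per gene, in which all 10 were present among 20467 genes. Its 9 libraries came from RAW264.7, a macrophage line of the mouse that was transformed with Abelson murine leukemia virus. All cells, those of the controls included, had received lipopolysaccharide (LPS) at 100 ng/ml for 2 h. In 3 libraries the RNA came from immunoprecipitation (IP) with polyclonal rabbit antibodies against Roquin and protein A/G beads (Roquin IP), in 3 from beads alone (control IP) and in 3 from the lysate before precipitation (input). Because no antibody was on the control beads, RNA that the antibodies recover in ways other than through Roquin cannot be told apart from RNA held by Roquin.

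MAP kinases (ERK, JNK and p38) carry the signal of the LPS receptor to transcription factors and to proteins that set mRNA stability. MAP kinase phosphatases remove the activating phosphates from the kinases, and many of their genes are induced by the same kinases, which closes a feedback loop. Spred proteins act further upstream: they bring the GTPase-activating protein neurofibromin to Ras and so limit the activation of Raf and ERK. Roquin binds stem-loops in the 3' untranslated regions (3' UTRs) of mRNAs, best known from the constitutive decay element (CDE) of Tnf, and directs these mRNAs to decay.

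The 3' UTRs of the 10 mRNAs were searched for the letters that such elements carry. The deposited table placed all 10 genes in its class without a predicted CDE, to which 20279 of the 20467 listed genes belonged. The core of the element was searched as TTCNNNGAA, with a pyrimidine, a purine and a pyrimidine as the 3 loop bases N, on the transcript strand of the longest 3' UTR in the GENCODE M21 annotation (GRCm38). It was found in 1 of the 10, Spred2, and in 527 of the 8728 tested genes with a 3' UTR (6.04%). Among 3' UTRs within 20% of the length of that of Spred2 (2579 bases), 9.70% held it. The site of Spred2 (chr11:20022340-20022358, plus strand) is shown with that of Tnf (chr17:35199583-35199601, minus strand), the mRNA the element is known from, because the 9 core letters were the same in both. The capitals mark the core.
Spred2: cagtaTTCTGTGAAcaagt
Tnf: atgttTTCTGTGAAaacgg
The bases that flank the loop could form 6 consecutive Watson-Crick pairs in Tnf and 3 in Spred2, whose stem therefore held the core pairs only. A strict form with 2 further pairs was found in 0 of the 10 mRNAs and in 0.917% of all tested 3' UTRs. A search added after the data were seen took a pyrimidine, a purine and any base as the loop. The stem was 6 pairs of any letters. This pattern was found in Dusp16 alone of the 10 (chr6:134716195-134716217, minus strand), against 19.2% of all tested 3' UTRs. Among 3' UTRs of similar length it was found in 24.5% for Dusp16, 45.4% for Spred1 and 18.0% for Dusp6. The loop of Dusp16 is in capitals.
Dusp16: gtgaacagacTGGgtctgtacag
Dusp6 and Spred1 held none of these 3 patterns, which says only that these letters were not in the windows searched.

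AU-rich letters, found in many short-lived inflammatory mRNAs, were spread unevenly. The heptamer TATTTAT occurred in 4 of the 10 mRNAs, with 3 matches each in Dusp1 and Spred1 and 1 each in Dusp2 and Spred2. Among 3' UTRs of similar length it occurred in 19.4% for Dusp1, 61.3% for Spred1, 17.6% for Dusp2 and 45.8% for Spred2. Dusp6 held no heptamer and 1 pentamer ATTTA (similar lengths: median 2), Dusp7 held no pentamer (median 3), and Spred1 held 12 (median 7). The matches of Dusp1 and Spred1 are shown because these 2 mRNAs held the most heptamers of the set. Each heptamer holds the pentamer, so the pentamer counts include the heptamer matches. The heptamers are in capitals. They lie on the minus strand for Dusp1 (chr17:26506163-26506183, chr17:26505874-26505894 and chr17:26505678-26505698) and on the plus strand for Spred1 (chr2:117178246-117178266, chr2:117179577-117179597 and chr2:117180906-117180926).
Dusp1 site 1: tggtcctTATTTATttaacac
Dusp1 site 2: ttaccttTATTTATttttgtg
Dusp1 site 3: gtttgttTATTTATgatctga
Spred1 site 1: attttcaTATTTATgcactag
Spred1 site 2: gcatttaTATTTATatgacag
Spred1 site 3: tttaaaaTATTTATtgaaact

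The Roquin IP libraries held 3547517 to 12975767 reads, the control IP libraries 2929537 to 8466096 and the input libraries 1799390 to 2122288. The unit of level is CPM, the count divided by the TMM-scaled library size and multiplied by 1000000. A level of 1 CPM stood for 2.38 to 10.3 reads per Roquin IP library, 3.28 to 11.6 per control IP library and 2.02 to 2.53 per input library, and a count of 0 allows up to 3 reads, which covers counting error only. Of 12 macrophage markers 10 were listed, whose levels summed to 1263 to 2040 CPM in the Roquin IP libraries, 996.8 to 1531 in those of control IP and 1218 to 1746 in those of the input. The summed levels of the fibroblast, epithelial and endothelial markers stayed at or under 1.19 CPM in every library, and the epithelial markers Epcam, Krt8 and Krt18 were at 0 in all of them.

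Roquin IP was compared with control IP to ask which of these mRNAs the antibodies recovered beyond what the beads held. Dusp6, whose product is a cytoplasmic phosphatase of ERK, was 5.47-fold higher, and Spred1 was 3.19-fold higher. The other phosphatases that were tested and Spred2 did not pass, with log2 fold changes from -0.27 to 0.38. Thus 2 of the 9 tested genes were called higher (edgeR quasi-likelihood test, Benjamini-Hochberg adjusted p under 0.05 over 9567 genes), where 3.76% of all tested genes were called higher. Of the 9 edgeR and DESeq2 called 0 lower, and the 2 called higher were also the only ones with an unadjusted p under 0.05, as 10.1% of all tested genes had. Over all tested genes edgeR called 0 lower (0.0%). In these 2 genes the 3 Roquin IP libraries lay above all 3 of control IP, a pattern seen in 10.7% of all tested genes.

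**Figure D1:**
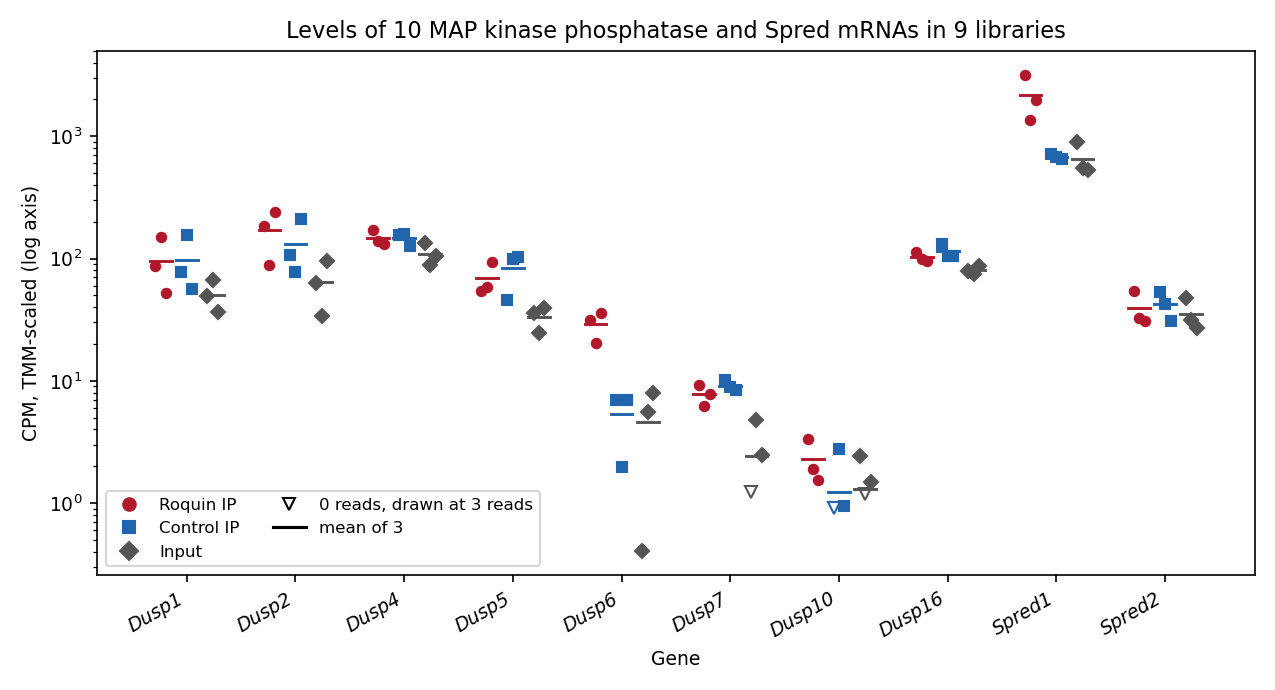
Level of each mRNA in CPM (TMM-scaled, logarithmic axis) in the 3 libraries each of Roquin IP, control IP and input, with the mean as a bar and libraries with 0 reads as open triangles at the level of 3 reads. Dusp6 lay at 20.2 to 36.0 CPM and Spred1 at 1353 to 3197 CPM in Roquin IP, above every control IP and input library, while the other 8 mRNAs overlapped between Roquin IP and control IP.

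Dusp6 had 31.5, 20.2 and 36.0 CPM in Roquin IP 1, 2 and 3, against 7.00, 1.96 and 6.96 CPM in control IP 1, 2 and 3. The lowest Roquin IP library was thus above the highest control library, and control IP 2, with 10 reads, was the lowest of the 6. The log2 fold change was 2.45 (SE 0.63, adjusted p = 0.0425). Libraries with the same replicate number gave ratios of 4.49, 10.3 and 5.17. With the replicate number as a block the log2 fold change was 2.53 (adjusted p = 0.0122). It was 2.47 with DESeq2 (0.00216) and 1.63 with library size alone (0.0497). In the main fit the adjusted p was close to the threshold, and the call ended on leaving out any single library. The adjusted p was 0.144, 0.0614 and 0.178 without Roquin IP 1, 2 and 3. Without control IP 1, 2 and 3 it was 0.0515, 0.194 and 0.0633. The log2 fold changes on leaving out a library lay from 2.06 to 2.75.

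Spred1, which restrains Ras signalling and is expressed in many haematopoietic cells, had 3197, 1353 and 1986 CPM in Roquin IP 1, 2 and 3, against 722.4, 677.6 and 648.8 CPM in control IP 1, 2 and 3. The Roquin IP libraries differed more among themselves (coefficient of variation 43.0%) than those of control IP (5.43%), and Roquin IP 1 was the highest. The log2 fold change was 1.67 (SE 0.34, adjusted p = 0.00877), and libraries of equal number gave ratios of 4.43, 2.00 and 3.06. The call ended without Roquin IP 1 (1.29, adjusted p = 0.0548), without control IP 2 (1.67, 0.0520) and with scaling by library size alone (0.85, 0.0634). That scaling moved the median of all genes from -0.12 with TMM to -0.96, and relative to the median Spred1 stood at 1.79 with TMM and 1.81 with library size, and Dusp6 at 2.57 and 2.59.

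**Figure D2:**
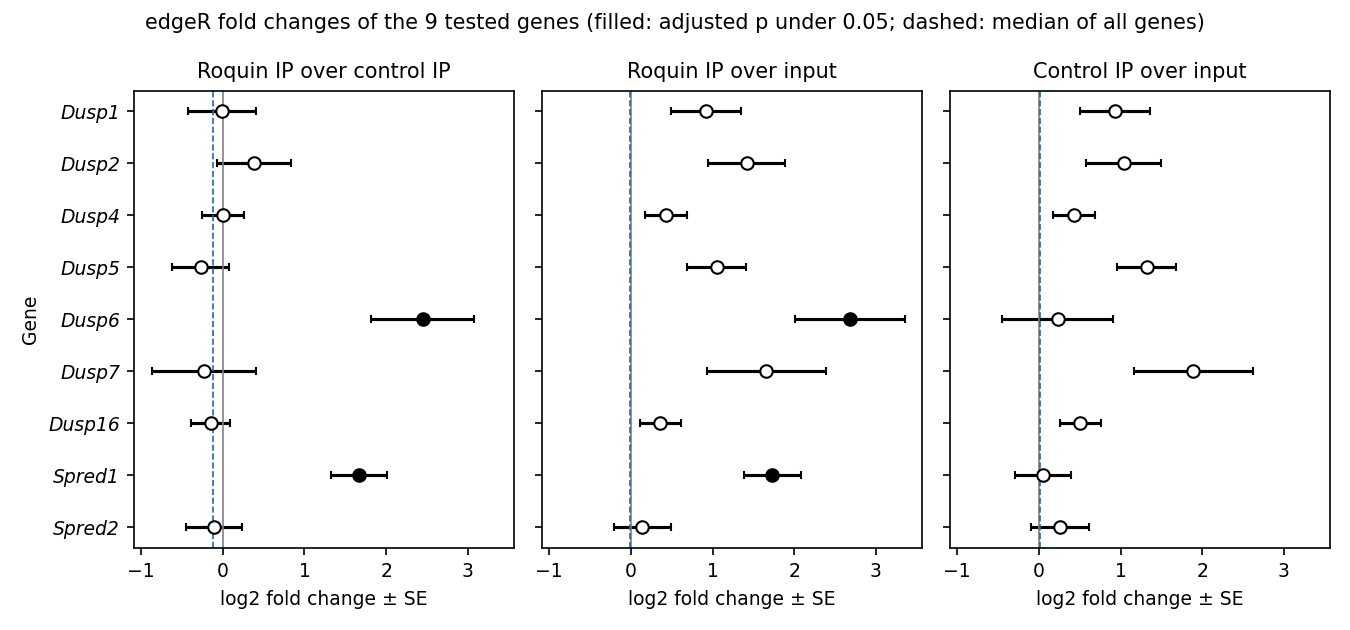
Fitted log2 fold change with its SE for the 9 tested genes in each comparison, each from 3 against 3 libraries. Filled points passed the adjusted p threshold, and the dashed line is the median of all 9567 genes. Only Dusp6 and Spred1 are filled, in both comparisons of Roquin IP, and in control IP over input they lie at 0.23 and 0.05.

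The nuclear phosphatases gave like levels in both precipitates. Dusp1, the LPS-induced phosphatase of p38 and JNK that limits cytokine production in macrophages, had 86.8, 149.5 and 52.1 CPM in Roquin IP and 78.0, 155.2 and 56.8 CPM in control IP. The order of the replicate numbers was the same in both groups, and ratios of equal numbers lay from 0.916 to 1.11 (log2 fold change -0.01, SE 0.42, adjusted p = 0.998). Dusp2, an inducible phosphatase of activated leukocytes, had 185.4, 87.9 and 241.7 CPM in Roquin IP and 106.3, 77.2 and 211.8 CPM in control IP. Its groups overlapped, although all 3 equal-numbered ratios were above 1 (1.74, 1.14 and 1.14), and it did not pass (0.38, SE 0.45, adjusted p = 0.827). With library size alone its value was -0.44.

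Dusp4, which acts on ERK and JNK, had 170.7, 138.2 and 132.6 CPM in Roquin IP and 155.9, 159.9 and 125.9 CPM in control IP. Its fold change was 0.999 (SE 0.26 on the log2 scale, adjusted p = 0.998). Dusp5, a phosphatase specific for ERK, had 54.1, 58.3 and 93.9 CPM in Roquin IP and 45.4, 99.4 and 103.8 CPM in control IP. Its groups overlapped (log2 fold change -0.27, SE 0.35, adjusted p = 0.849). In the annotation 547 exonic bases of Dusp5 overlap an antisense gene, and 11 bases of Dusp1 overlap Ergic1 on the other strand. Since no source used here says whether reads were counted by strand, the reads of Dusp5 in particular are uncertain.

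Among the other phosphatases, Dusp7, a cytoplasmic ERK phosphatase like Dusp6, had 22, 49 and 81 reads (9.23, 6.19 and 7.84 CPM) in Roquin IP, against 33, 45 and 97 reads (10.1, 8.82 and 8.34 CPM) in control IP. Its groups overlapped (log2 fold change -0.23, SE 0.64, adjusted p = 0.931). Dusp16, which acts on JNK and p38, had 113.7, 99.1 and 95.6 CPM in Roquin IP and 131.9, 105.0 and 105.6 CPM in control IP, with all equal-numbered ratios under 1 (0.862, 0.944 and 0.906) and no call (-0.15, SE 0.24, adjusted p = 0.888). Dusp10, another phosphatase of p38 and JNK, had 8, 15 and 16 reads in Roquin IP and 0, 14 and 11 in control IP. It lay under the filter on low counts and was not tested.

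Spred2, the paralog of Spred1, had 54.5, 32.6 and 30.9 CPM in Roquin IP and 53.6, 42.7 and 30.6 CPM in control IP. The groups overlapped throughout, and the log2 fold change was -0.11 (SE 0.34, adjusted p = 0.936). Spred2, whose 3' UTR held the core letters on a stem of 3 pairs, was thus not called, while Dusp6 and Spred1, which lacked them, were. The deposited table placed all of these genes in its class without a CDE. They therefore do not compare mRNAs with a predicted CDE against mRNAs without one. Of all 9437 tested genes in the deposited class without a CDE, 329 (3.49%) were called higher, against 360 (3.76%) of all 9567 tested genes. With library size alone, where 38.8% of all tested genes were called lower, Dusp4, Dusp5, Dusp16 and Spred2 were called lower (adjusted p = 0.0361, 0.0411, 0.0213 and 0.0461), but relative to the median of all genes they stood at 0.13, -0.14, -0.02 and 0.03.

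**Figure D3:**
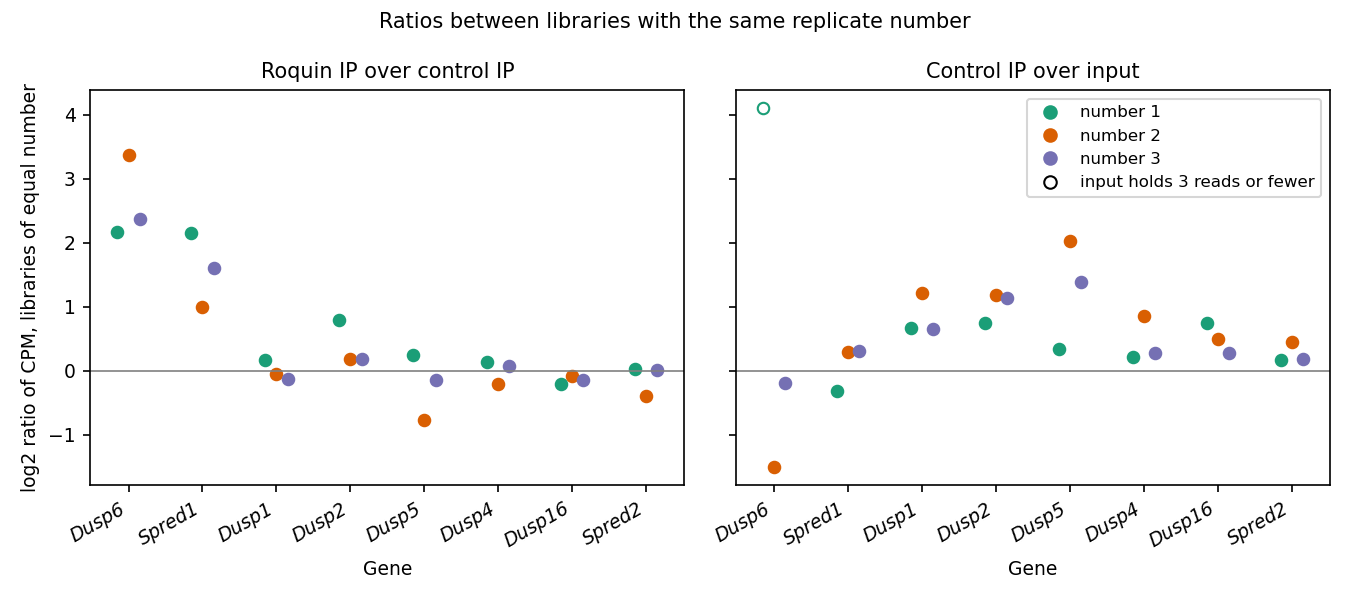
The log2 ratio of CPM between libraries with the same replicate number, for the 8 mRNAs with the most reads of the 10 over all libraries, Dusp7 and Dusp10 left out. Left, the points of Dusp6 (2.17 to 3.37) and Spred1 (1.00 to 2.15) lie above 0 for Roquin IP over control IP. Right, for control IP over input, the other 6 lie above 0 at every number, while Dusp6 and Spred1 lie on both sides, and the open point of Dusp6 rests on 1 read in Input 1.

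Roquin IP was set against the input to ask which of these mRNAs were enriched relative to the lysate. Dusp6 and Spred1 were again called higher, 6.40-fold and 3.31-fold. Dusp2, Dusp7, Dusp5 and Dusp1 had log2 fold changes of 1.42, 1.66, 1.05 and 0.92 but did not pass. Thus 2 of 9 tested genes were called higher and 0 lower in edgeR, where 5.45% of all tested genes were called higher and 2.79% lower. At an unadjusted p under 0.05 there were 5, against 22.8% of all tested genes, and DESeq2 called 4 higher and 0 lower, against 7.44% higher of all tested genes. In 5 of them (Dusp5, Dusp6, Dusp7, Dusp16 and Spred1) all Roquin IP libraries lay above the input, against 16.5% of all tested genes. The median log2 fold change of the 9 was 1.05, against -0.01 over all tested genes. In control IP over input this median was 0.51, against 0.02, and in Roquin IP over control IP it was -0.01, against -0.12.

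Dusp6 had 31.5, 20.2 and 36.0 CPM in Roquin IP, against 0.407, 5.54 and 7.93 CPM in Input 1, 2 and 3. The input values rested on 1, 14 and 16 reads, and the first was under the limit that a count of 0 allows (1.22 CPM), so the size of the change is uncertain. Its log2 fold change was 2.68 (SE 0.67, adjusted p = 0.0247), and it was 2.12 (0.0473) without Input 1 and 3.29 (0.0309) without Input 3. The call ended without Roquin IP 1 (0.0828), Roquin IP 3 (0.0912) or Input 2 (0.0837). Spred1 had 893.0, 554.4 and 525.2 CPM in Input 1, 2 and 3, all below its Roquin IP libraries. It stood at 1.73 on the log2 scale (SE 0.35, adjusted p = 0.00707). It passed without each library in turn (adjusted p from 0.00308 to 0.0486).

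Dusp2 had 63.1, 34.0 and 96.2 CPM in the input, and the ratios of equal numbers, Roquin IP over input, were 2.94, 2.58 and 2.51. These ratios were close to each other although both groups varied with the number. Dusp2 did not pass in the fit without the replicate number (SE 0.47, adjusted p = 0.0792) but did with it as a block (1.42, 0.000464). Dusp5, at 35.8, 24.5 and 39.7 CPM in the input, did likewise (1.05 without the block, adjusted p = 0.0944, and 1.00 with it, 0.0273). Dusp1, at 48.9, 66.8 and 36.2 CPM in the input, passed only with the block (0.92, adjusted p = 0.223, against 0.84, 0.0152). With the block 5 of the 9 genes were called higher, where 9.99% of all tested genes were. Without Roquin IP 2, Dusp2 also passed without the block (1.73, adjusted p = 0.0468).

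Dusp4 had 133.6, 88.6 and 104.6 CPM in the input, Dusp16 78.6, 74.7 and 86.8 CPM, and Spred2 47.6, 31.2 and 26.8 CPM. None of these 3 passed in Roquin IP over input (log2 fold change 0.43, 0.36 and 0.14, adjusted p = 0.361, 0.424 and 0.853), and with library size alone their values were -0.32, -0.39 and -0.62. Dusp7 had only 0, 12 and 5 reads in the input libraries, on which its value of 1.66 rested (SE 0.73, adjusted p = 0.193). It was 1.06 without Input 1 and 2.70 without Input 2. Dusp10 had 6, 0 and 3 reads.

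Control IP was set against the input to measure what the beads alone held. Of the 9 tested genes edgeR called 0, where 1.12% of all tested genes were called in either direction, and 3 (Dusp2, Dusp5 and Dusp7) had an unadjusted p under 0.05, as did 20.4% of all tested genes. DESeq2 called 2 higher, Dusp5 and Dusp7, where it called 4.23% of all tested genes higher. With the replicate block Dusp1 (0.85, adjusted p = 0.0232), Dusp2 (1.03, 0.00929) and Dusp5 (1.27, 0.0162) were higher, where 6.65% of all tested genes were called higher. In 3 genes, Dusp5, Dusp7 and Dusp16, all control IP libraries lay above the input, against 12.2% of all tested genes.

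Dusp5 had the lowest adjusted p of the set in control IP over input, with 45.4, 99.4 and 103.8 CPM in control IP against 35.8, 24.5 and 39.7 CPM in the input. The log2 fold change of 1.32 (SE 0.36) did not pass (adjusted p = 0.0762). It passed without control IP 1 (1.61, 0.0292). Dusp1 was at 0.93 (SE 0.43, adjusted p = 0.247), Dusp2 at 1.04 (0.226) and Dusp7 at 1.89 (0.166), which was 1.30 without Input 1 and 2.94 without Input 2. These values stood beside 0.92, 1.42 and 1.66 for Roquin IP over input, comparisons that share the input libraries. Dusp6 was at 0.23 (SE 0.68, adjusted p = 0.888) and Spred1 at 0.05 (SE 0.34, 0.950), beside 2.68 and 1.73 for Roquin IP over input.

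Per length, Spred1 had the highest mean level of the 10 mRNAs and Dusp10 the lowest in each group. Single libraries departed from this order: in control IP 3 Dusp2 was at 131.0 CPM per kb and Spred1 at 107.8, and Dusp10 was above Dusp6 in control IP 2 (0.983 against 0.701 CPM per kb) and in Input 1 (0.875 against 0.146). Levels were divided by the length of the longest annotated coding transcript. In the input Spred1 averaged 109.3 ± 34.0 CPM per kb, followed by Dusp2 at 39.9 ± 19.2, Dusp4 at 39.8 ± 8.32, Dusp1 at 25.4 ± 7.73, Dusp16 at 15.7 ± 1.21, Dusp5 at 13.5 ± 3.19, Spred2 at 7.92 ± 2.47, Dusp6 at 1.65 ± 1.38, Dusp7 at 0.750 ± 0.739 and Dusp10 at 0.469 ± 0.441 CPM per kb (SD, n = 3 each). The ranges of neighbours in this order were apart for Spred1 and Dusp2, Dusp1 and Dusp16, and Spred2 and Dusp6, and overlapped for the other 6 pairs. Dusp6 ranked 7 in Roquin IP, with 10.5 ± 2.90 CPM per kb, 9 in control IP, with 1.90 ± 1.04 CPM per kb, and 8 in the input (SD, n = 3 each). Of the reads of the 10 genes, Spred1 took 75.2% ± 6.21 in the Roquin IP libraries, 52.0% ± 2.76 in those of control IP and 62.6% ± 5.95 in those of the input.

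The authors' deposited table set Roquin IP over control IP for Dusp6 at a ratio of 5.55 with a p-value of 0.004644. In the authors' deposited table Spred1 had a ratio of 3.23 with a p-value of 0.631453, which is above 0.05, while its adjusted p in edgeR was under 0.05 (0.00877). For the other 8 genes the authors' deposited table listed ratios from 0.84 (Dusp5) to 1.89 (Dusp10), each with a p-value of 1. Among all 360 genes called higher in edgeR, whose median was 5.16-fold, Dusp6 ranked 171 and Spred1 275 by fold change.

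Other genes of the pathway were read from 6 lists, chosen with earlier results of these data known. Their counts stand beside 3.76% of all tested genes called higher and 10.1% at an unadjusted p under 0.05 in Roquin IP over control IP. Of 18 other MAP kinase phosphatases and dual-specificity phosphatases 14 were tested and 0 called in Roquin IP over control IP by edgeR or by DESeq2 (2 at an unadjusted p under 0.05), with a median log2 fold change of -0.11, against -0.12 over all tested genes. Ptpn7, a tyrosine phosphatase of ERK and p38 in leukocytes, was at 1.17 (SE 0.38, adjusted p = 0.165). It passed when the number was a block (1.18, 0.0336), and it was higher over the input (1.85, SE 0.39, adjusted p = 0.00991). Dusp28, the other of the 2 genes, went the other way, at -1.97 (SE 0.79, adjusted p = 0.357). Dusp28 averaged 0.797 CPM in Roquin IP and 3.46 CPM in control IP. Both genes were named after their values were seen. Of 16 Sprouty proteins and other inhibitors of Ras and Raf 10 were tested and 1 was higher: Rasa2, a GTPase-activating protein of Ras, averaged 133.0 ± 21.9 CPM in Roquin IP and 33.5 ± 11.2 CPM in control IP (SD, n = 3 each). Its log2 fold change was 1.99 (SE 0.30, adjusted p = 0.000657). The median of that list was 0.33.

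Of 20 genes of the ERK cascade 17 were tested and 1 was higher over control IP, at a median of -0.25. This was Sos2, an exchange factor that activates Ras, at 219.2 ± 77.9 CPM in Roquin IP and 50.5 ± 30.7 CPM in control IP (log2 fold change 2.13, SE 0.43, adjusted p = 0.00793). Its call ended without control IP 2 (1.96, adjusted p = 0.0590). Of 16 genes of the JNK and p38 cascades 11 were tested and 2 were higher (3.76% of all tested genes), at a median of -0.03. Mapk8, which encodes the kinase JNK1, was at 124.6 ± 14.3 CPM in Roquin IP and 26.5 ± 2.92 CPM in control IP (2.23, SE 0.30, adjusted p = 0.000267), and Taok1, an upstream kinase of p38 and JNK, at 510.8 ± 124.6 and 143.6 ± 44.7 CPM (1.83, SE 0.31, adjusted p = 0.00184). With the block Mapk9, the paralog of Mapk8, passed as well (1.21, adjusted p = 0.0309), a gene named after its values were seen. In Roquin IP over input edgeR called 1 gene higher in each of these lists, Sos2 (2.21, adjusted p = 0.00644) and Mapk8 (1.54, 0.00579). Taok1 was at 1.01 there (adjusted p = 0.0540) and passed with the block (1.00, 0.00428).

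Of 10 kinases downstream of MAP kinases 8 were tested and edgeR and DESeq2 called 0 over control IP (0 at an unadjusted p under 0.05, 0 with the block), at a median of -0.23. Of 17 early genes that ERK induces 15 were tested and 2 were higher (3.76% of all tested genes), at a median of 0.22. Ier3, an early survival gene, averaged 6287 ± 2511 CPM in Roquin IP and 267.1 ± 124.1 CPM in control IP (4.56, SE 0.50, adjusted p = 3.77e-05). Fos, a subunit of the AP-1 transcription factor, averaged 32.9 ± 7.63 CPM in Roquin IP and 5.34 ± 4.38 CPM in control IP (2.56, SE 0.64, adjusted p = 0.0384). The call of Fos ended with library size alone (0.0501), with only the 6 libraries compared (0.0559), without Roquin IP 1, 2 or 3 (0.0699, 0.129 and 0.145) and without control IP 2 or 3 (0.0697 and 0.0551). With the block Egr1, an early transcription factor gene, passed as well (1.04, adjusted p = 0.00926, against 1.08 and 0.520 without it), also named after its values were seen.

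**Figure D4:**
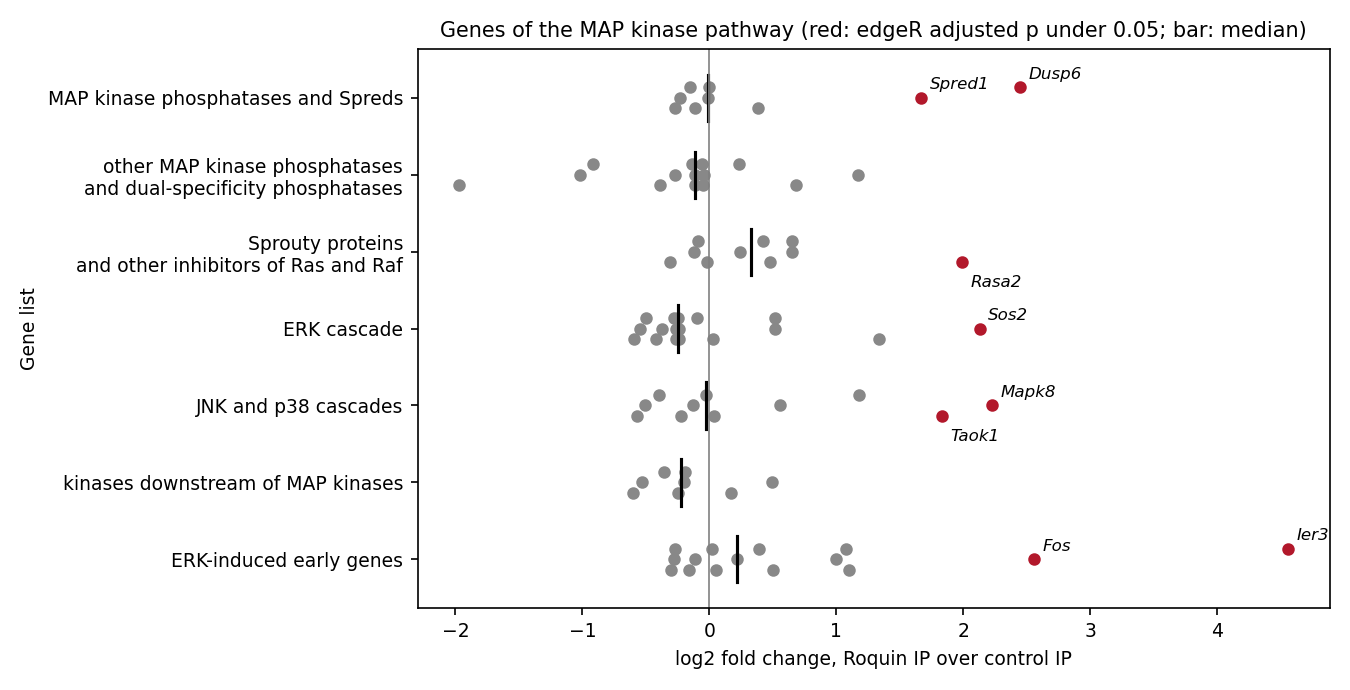
Fitted log2 fold change of Roquin IP over control IP for each tested gene of the 7 groups of genes, with the median of each group as a bar. The genes in red passed the adjusted p threshold: Spred1, Dusp6, Rasa2, Sos2, Taok1, Mapk8, Fos and Ier3, from 1.67 to 4.56, while the medians of the groups lie between -0.25 and 0.33.

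The levels of the called genes across the 9 libraries were set beside those of all other tested genes. The highest Pearson correlations of log2 CPM with Spred1 were those of Klf9 (r = 0.993), a transcription factor gene, Map4k5 (0.990), a kinase gene, and Eif2c1 (0.989), which encodes an Argonaute protein. For Dusp6 they were Kbtbd8 (0.976), Fastkd2 (0.973) and Hus1 (0.971). In Roquin IP over control IP edgeR called Klf9 and Eif2c1 higher (adjusted p = 0.000497 and 0.00543). It did not call Map4k5 (0.0591), Kbtbd8 (0.0823), Fastkd2 (0.362) or Hus1 (0.232). These correlations are a description over 9 libraries in 3 groups, which share their depth and group differences. Spred1 and Dusp6 had r = 0.632 with each other, and Spred1 and Spred2 r = 0.354.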

How the data were processed

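The authors deposited raw counts of reads per gene for 9 libraries, per the file headers, beside a ratio of the Roquin IP mean over that of control IP and its p-value. The header of the deposited ratio gives log2, but its values are linear: they are never negative and lie near the ratios of mean CPM. No source used here says whether that p-value was adjusted. The submitters' processing notes name CASAVA 1.8.2, BWA and DESeq 1.8.3, and genome build, annotation and strand handling were not given in any source used here. Blank lines (7480) held no values.

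Counts were fitted in edgeR 4.0.16 (R 4.3.3; glmQLFit, TMM factors), in a single model of all 9 libraries by group. The filterByExpr filter (minimum count 10) kept 9567 genes, Dusp10 not among them. The SE is the log2 fold change divided by the square root of the F statistic. The fit was tested on simulated data. Alternatives were DESeq2 1.42.0, RLE factors, library size alone, no filter, removal of Lars2, only the 6 libraries compared, removal of each library and the replicate number as a block. The design text calls the replicates biological and does not say that equal numbers were made together. Deviations from the group means correlated at 0.152 to 0.580 in all 9 pairs of equal number and at -0.433 to -0.019 in the 18 other pairs. Deviations cancel out within a group, so the negative values partly follow from the positive ones. The numbers were taken as a likely pairing of the libraries. The main fit left them out. Calls that differed with the block are given for the 10 genes in every comparison and for the pathway lists in Roquin IP over control IP. In the comparisons with the input, further genes of the lists passed with the block and are not all named. No libraries were duplicates (chi-square per degree of freedom between replicates 13.9 to 117.4).

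3' UTRs came from GENCODE M21 (GRCm38), matched by symbol. From each pathway list every gene called in Roquin IP over control IP was named, up to 4, and for each called member the 3 genes most correlated with it. Outside this rule Ptpn7, Mapk9 and Egr1, which passed over control IP with the replicate block but not in the main fit, and Dusp28 were named after their values were seen. The members and lists were chosen with earlier results of these data known.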

Additional observations from a re-analysis of the deposited data

How the results depend on the processing

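Over control IP 2 genes, Dusp6 and Spred1, were called higher (3.76% of all tested genes), and 1 with library size alone (2.69%). On leaving out each library in turn the count was 0 to 1. Over the input 2 genes were called higher (5.45% of all tested genes), and 4 with DESeq2 (7.44%). There were 4 with no filter on low counts (4.83%), 5 with the replicate block (9.99%) and 4 with only the 6 libraries compared. Leaving out each library gave 1 to 3. In control IP over input 0 genes were called (1.12% of all tested genes in either direction). Calls in other settings were all higher: 2 with DESeq2 (4.23% higher), 2 with no filter (2.37%) and 3 with the replicate block (6.65%). Leaving out each library there gave 0 to 1. No share of all tested genes was taken where only the 6 libraries were compared or a library was left out. The replicate block changed no call of these genes other than those of Dusp1, Dusp2 and Dusp5 over the input. The decay element pattern was found in 1 mRNA, in 0 in its strict form, in 1 over every annotated transcript, and in 1 (another gene) as a loop on a stem of 6 pairs. Signs turned for values near 0 or with another scaling, and the cause was not tested: Dusp1 and Dusp4 over control IP were each at 0.02 with DESeq2 and with RLE factors, 0.00 without Lars2 and 0.05 with only the 6 libraries, Dusp2 over control IP was at -0.44 with library size alone, and Dusp4, Dusp16 and Spred2 over the input were at -0.32, -0.39 and -0.62 with it. On leaving out each library, Dusp1 ranged from -0.48 to 0.52, Dusp4 from -0.12 to 0.07 and Spred2 from -0.41 to 0.09 over control IP, Spred2 from -0.15 to 0.42 in Roquin IP over input, and Dusp6 from -0.32 to 0.79 and Spred1 from -0.12 to 0.34 in control IP over input. Depth limits Dusp6 in the input (1, 14 and 16 reads), Dusp7 in the input and Dusp10 in every group.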
